A study of Homo sapiens with 9 samples.

Results

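The unfolded protein response of the endoplasmic reticulum (ER) was followed through 10 of its target genes in Daudi cells after knockdown of SLC7A5 or MYC. The genes were HSPA5, HSP90B1, HYOU1, PDIA4, DNAJB9, HERPUD1, SDF2L1, CRELD2, MANF and SEL1L, chosen by name as ER chaperones and degradation genes that ATF6 and XBP1 drive. Each had a probe set of exactly that symbol, and all 10 were among the 11250 genes tested, of 19775 genes with a probe set. The 10 genes did not move together. After MYC knockdown 4 of them rose (DNAJB9, HERPUD1, SEL1L and HYOU1), 4 fell (SDF2L1, MANF, PDIA4 and HSPA5) and 2 did not pass the test, where 54.9% of all tested genes passed. After SLC7A5 knockdown DNAJB9 and HERPUD1 rose, SDF2L1 and MANF fell, and the other 6 did not pass the test, where 25.3% of all tested genes passed.

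Daudi cells are B cells grown from a Burkitt lymphoma, and in such tumours a translocation places MYC under immunoglobulin gene control. Cells received a control hairpin RNA (Ctrl-sh), a hairpin against the amino acid transporter gene SLC7A5 (Slc7a5-sh) or one against MYC (C-Myc-sh), and every group, the control included, was then kept in puromycin for 48 hours. MYC knockdown served as the study's positive control, per its design text. Each group had 3 arrays, labelled as biological replicates. The labels tell no hairpins of one target apart, so an effect of the hairpin sequence cannot be told apart from loss of its target. Whether each replicate was infected separately is not stated, and the p-values then reflect only how far these arrays vary, which may be technical.

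When unfolded proteins build up in the ER, 3 membrane sensors respond. IRE1 (gene ERN1) splices XBP1 mRNA into the form that encodes an active factor, ATF6 moves to the Golgi and is cut free by the proteases MBTPS1 and MBTPS2, and PERK (EIF2AK3) phosphorylates eIF2α, which favours translation of ATF4. XBP1 and ATF6 act on the promoters of chaperone and ER-associated degradation genes, partly through short sequences known as ER stress response elements. ATF4 is also raised by amino acid shortage through another eIF2α kinase, GCN2, so its targets respond to both conditions. B cells that mature into plasma cells use the XBP1 branch to enlarge the ER for antibody secretion.

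Values are log2 signals, and a difference of 1 on this scale is a doubling. Array medians over all probe sets lay between 6.05 and 6.26. Arrays of one group correlated at 0.972 to 0.977 over the 11250 genes tested. MYC was at 13.22 ± 0.05 in Ctrl-sh, 12.87 ± 0.07 with Slc7a5-sh and 12.13 ± 0.01 with C-Myc-sh (SD, n = 3 each), and fell after both knockdowns (limma, adjusted p = 0.000381 and 4.7e-10). SLC7A5 was at 12.21 ± 0.15, 11.89 ± 0.06 and 11.80 ± 0.03 (SD, n = 3 each), and also fell after both (adjusted p = 0.00414 and 0.000186). The SLC7A5 signal of Slc7a5-sh was 80.0% of the control's and the MYC signal of C-Myc-sh 46.9%. The difference in SLC7A5 between the knockdowns did not pass (-0.08, adjusted p = 0.351). Of 14 B-cell markers, 13 were measured and all 13 passed the filter on low signals, a mean of at least 5.77. Their summed linear signal was 64522 to 66849 in Ctrl-sh, 52631 to 56139 in Slc7a5-sh and 63119 to 67350 in C-Myc-sh. Of 11 measured T- and NK-cell markers 3 passed that filter, LCK, CD4 and CD3E, and CD3D and CD3G lay below it. Their sum was 1119 to 1242 in Ctrl-sh, 924 to 1092 in Slc7a5-sh and 478 to 576 in C-Myc-sh. LCK alone carried most of that fall, from a mean of 9.55 on the log2 scale in the control to 7.35 with C-Myc-sh, while CD3E was at 5.97 and 6.52. The sums of 8 myeloid and 12 epithelial and fibroblast markers overlapped between all groups. The part of the lower MYC level in the Slc7a5-sh results was not tested, nor was that of the B-cell and T-cell sums in any result that follows.

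The promoters of the 10 genes were searched because they show which members carry the elements that ATF6 and XBP1 are known to use. RefSeq windows (GRCh38.p14) from 250 bases before to 50 bases after each annotated start held 1 window for 9 genes and 2 for PDIA4. The ER stress response element, ERSE, was searched as CCAAT, any 9 bases, then CCACG, on both strands. Of all 35116 promoter windows, 27 held it (0.0769%), among them those of HSPA5, HSP90B1 and CRELD2. Its variant ERSE-II, searched as ATTGG, any 1 base, then CCACG, was in 19 windows (0.0541%), among them those of HERPUD1, HYOU1 and SDF2L1. The XBP1 element UPRE, TGACGTGG, was in 256 windows (0.729%) and in HYOU1, where it overlaps an ERSE-II match. The ATF4 element CARE, TGATGNAA, was in 1270 windows (3.62%) and in HERPUD1. DNAJB9, MANF, PDIA4 and SEL1L held no match to these 4 motifs in the window, which says nothing of the factors beyond these letters. The half-site CCACG alone was in all 11 windows of the 10 genes and in 38.1% of all windows, and it lies within every ERSE and ERSE-II match and overlaps the UPRE and E-box matches. The E-box CACGTG, which MYC and other factors bind, was in 7.26% of all windows, in DNAJB9 at 2 places and in HERPUD1 and HSP90B1 at 1 each.

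The 250 bases before the start of 4 genes are shown because the same element stands before genes that rose and genes that fell. HERPUD1 and HYOU1 rose in C-Myc-sh and SDF2L1 fell, and all 3 carry ERSE-II, while HSPA5, which also fell, carries the classical ERSE. Sequences run 5′ to 3′ on the strand of the gene, and capitals mark the fixed letters of ERSE, ERSE-II, UPRE and CARE matches on either strand. The windows are chr16:56931892-56932141 (plus strand) for HERPUD1, chr11:119057206-119057455 (minus) for HYOU1, chr22:21642052-21642301 (plus) for SDF2L1 and chr9:125241344-125241593 (minus) for HSPA5.
HERPUD1: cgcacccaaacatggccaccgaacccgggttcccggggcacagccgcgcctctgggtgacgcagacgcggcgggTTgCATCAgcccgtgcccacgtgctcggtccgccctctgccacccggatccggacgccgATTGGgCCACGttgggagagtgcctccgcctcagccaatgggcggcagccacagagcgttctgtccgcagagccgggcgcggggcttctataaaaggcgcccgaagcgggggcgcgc
HYOU1: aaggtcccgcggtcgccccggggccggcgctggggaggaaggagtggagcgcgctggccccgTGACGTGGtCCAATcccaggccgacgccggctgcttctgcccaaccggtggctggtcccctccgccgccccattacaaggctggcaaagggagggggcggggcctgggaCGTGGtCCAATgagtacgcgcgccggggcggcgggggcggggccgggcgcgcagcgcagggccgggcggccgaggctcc
SDF2L1: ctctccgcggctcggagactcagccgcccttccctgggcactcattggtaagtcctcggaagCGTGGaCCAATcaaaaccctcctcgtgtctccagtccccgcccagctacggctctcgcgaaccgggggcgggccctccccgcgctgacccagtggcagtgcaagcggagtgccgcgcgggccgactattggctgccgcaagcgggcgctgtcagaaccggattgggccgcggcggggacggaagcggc
HSPA5: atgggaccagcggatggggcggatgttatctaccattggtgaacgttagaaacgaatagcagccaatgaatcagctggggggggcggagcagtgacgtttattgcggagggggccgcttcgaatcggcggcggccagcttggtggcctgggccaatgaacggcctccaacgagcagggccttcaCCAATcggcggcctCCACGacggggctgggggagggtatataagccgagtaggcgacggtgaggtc

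In HERPUD1 the CARE match lies 176 to 169 bases before the start and the ERSE-II match 117 to 107 bases before it. The window of HYOU1 holds 2 ERSE-II matches on the opposite strand, 185 to 175 and 79 to 69 bases before the start, with the UPRE match over the farther one. SDF2L1 has ERSE-II on the opposite strand 188 to 178 bases before the start, and HSPA5 has ERSE 66 to 48 bases before it. The ERSE matches of the genes that did not pass the test against the control, HSP90B1 at chr12:103930216-103930234 and chr12:103930321-103930339 and CRELD2 at chr22:49918554-49918572, are printed on the plus strand, which is that of both genes. The match of CRELD2 and the nearer one of HSP90B1 are on the opposite strand, so they begin with the reversed half-site.
HSP90B1, farther from the start: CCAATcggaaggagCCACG
HSP90B1, nearer to the start: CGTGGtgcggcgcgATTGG
CRELD2: CGTGGcgaactcggATTGG

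**Figure D1:**
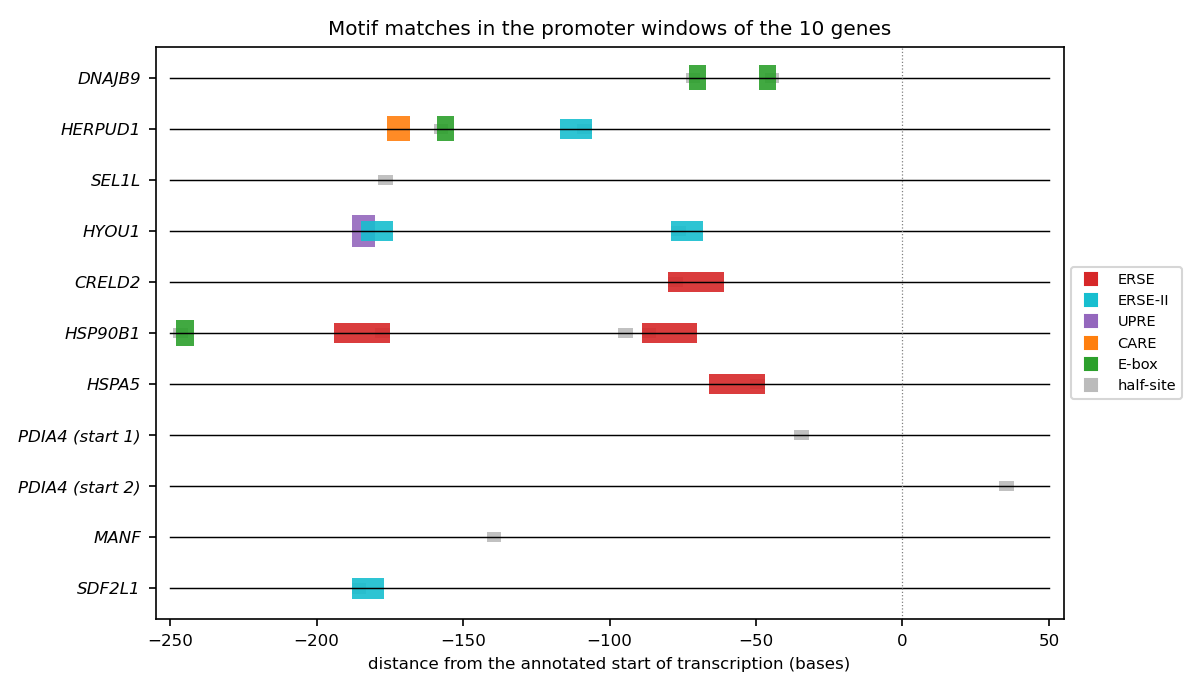
Motif matches in the promoter windows of the 10 genes, by distance in bases from the annotated start of transcription. Coloured boxes are matches on either strand, and grey boxes are the half-site alone. ERSE-II stands in HERPUD1 and HYOU1, which rose in C-Myc-sh, and in SDF2L1, which fell.

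DNAJB9, or ERdj4, is a J-domain co-chaperone of HSPA5 and a textbook XBP1 target. It had the widest change of the 10. Its log2 signal was 10.61, 10.41 and 10.72 on the Ctrl-sh arrays, 11.47, 11.39 and 11.43 on the Slc7a5-sh arrays and 12.08, 12.02 and 12.11 on the C-Myc-sh arrays. The 3 groups did not overlap, with Ctrl-sh lowest and C-Myc-sh highest. DNAJB9 rose by 0.85 (SE 0.08, 1.80-fold) in Slc7a5-sh and by 1.49 (SE 0.08, 2.81-fold) in C-Myc-sh (limma, adjusted p = 4.7e-06 and 6.1e-10). The difference between the knockdowns, 0.64, passed the test as well (adjusted p = 6.0e-06). Both of its further probe sets rose in the 3 comparisons, by 0.48 and 0.74 in Slc7a5-sh and by 1.25 and 1.49 with C-Myc-sh.

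HERPUD1 is an ER membrane protein with a ubiquitin-like domain that helps to organise ER-associated degradation. Its values were 12.61, 12.57 and 12.66 in Ctrl-sh, 12.93, 12.93 and 13.06 with Slc7a5-sh, and 13.36, 13.42 and 13.44 with C-Myc-sh. The order was that of DNAJB9, again with no overlap between groups. HERPUD1 rose by 0.36 (SE 0.05, 1.28-fold) in Slc7a5-sh and by 0.79 (SE 0.05, 1.73-fold) in C-Myc-sh (limma, adjusted p = 0.000297 and 1.4e-08). C-Myc-sh exceeded Slc7a5-sh by 0.43 (adjusted p = 1.1e-05). A second, dimmer probe set of HERPUD1 read 5.15, 5.53 and 5.41 in Ctrl-sh, below the 5.77 of the filter on low signals, and passed that filter through the other groups. Its differences, 1.23 with Slc7a5-sh and 2.33 with C-Myc-sh, are against a control near background and are not used as support.

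SEL1L is the partner of the ubiquitin ligase SYVN1 (HRD1) in the complex that hands misfolded proteins to the proteasome. The log2 signals were 10.90, 10.78 and 10.81 in Ctrl-sh, 11.03, 10.98 and 10.88 with Slc7a5-sh, and 11.86, 11.53 and 11.70 with C-Myc-sh. Ctrl-sh and Slc7a5-sh overlapped, and all C-Myc-sh arrays lay above both. SEL1L rose by 0.86 (SE 0.08, 1.82-fold) in C-Myc-sh against the control and by 0.73 against Slc7a5-sh (limma, adjusted p = 5.6e-07 and 4.5e-06). The difference in Slc7a5-sh was 0.13, with a 95% interval from -0.05 to 0.31 (adjusted p = 0.28). Its 3 further probe sets did not all follow: in C-Myc-sh one rose by 0.50, one was 1.12 higher without passing the test, from a control mean below the filter, and one was at -0.47 without passing it. With all 4 probe sets averaged, the rise in C-Myc-sh was 0.50.

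HYOU1, also called GRP170, is a large ER chaperone and the nucleotide exchange factor of HSPA5. Ctrl-sh arrays read 10.72, 10.79 and 11.01, Slc7a5-sh arrays 11.05, 10.96 and 10.74, and C-Myc-sh arrays 11.54, 11.42 and 11.59. As with SEL1L, the control and Slc7a5-sh overlapped and C-Myc-sh stood above them. HYOU1 rose by 0.67 (SE 0.09, 1.60-fold) in C-Myc-sh against the control and by 0.60 against Slc7a5-sh (limma, adjusted p = 2.2e-05 and 8.6e-05). Slc7a5-sh differed from the control by 0.07, with a 95% interval from -0.13 to 0.28 (adjusted p = 0.622). HYOU1 had only 1 probe set, of a kind that can bind related transcripts.

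SDF2L1 forms a complex with DNAJB11 that serves HSPA5 as a co-chaperone. It gave 11.33, 11.35 and 11.33 in Ctrl-sh, 11.15, 10.89 and 11.08 with Slc7a5-sh, and 10.13, 10.17 and 10.34 with C-Myc-sh. The groups did not overlap and stood in the reverse order of DNAJB9, with Ctrl-sh highest. SDF2L1 fell by 1.12 on the log2 scale in C-Myc-sh (SE 0.08), to 45.9% of the control's signal, and by 0.82 against Slc7a5-sh (limma, adjusted p = 3.0e-08 and 1.2e-06). In Slc7a5-sh it fell by 0.30 (SE 0.08, adjusted p = 0.0163). That last call was lost without Slc7a5-sh replicate 2 (-0.22, adjusted p = 0.0708) and without a trend in the variance model (adjusted p = 0.0508). SDF2L1 also had only 1 probe set, of the same kind as that of HYOU1.

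MANF is a small ER protein that is secreted under stress and binds HSPA5. Its signals were 11.55, 11.58 and 11.59 in Ctrl-sh, 11.39, 11.27 and 11.13 with Slc7a5-sh, and 10.61, 10.67 and 10.36 with C-Myc-sh. Here too the groups were apart in the order Ctrl-sh, Slc7a5-sh, C-Myc-sh from high to low. MANF fell by 1.03 on the log2 scale in C-Myc-sh (SE 0.09), to 49.0% of the control, and by 0.71 against Slc7a5-sh (limma, adjusted p = 1.4e-07 and 8.4e-06). The fall in Slc7a5-sh was -0.31 (SE 0.09, adjusted p = 0.0169). It did not pass the test without Ctrl-sh replicate 2 (adjusted p = 0.05), Ctrl-sh replicate 3 (0.0543) or Slc7a5-sh replicate 3 (0.068), nor without the trend (0.0661). MANF, like CRELD2 below, had only 1 probe set.

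PDIA4, or ERp72, is a protein disulfide isomerase. It measured 12.41, 12.43 and 12.50 in Ctrl-sh, 12.10, 12.17 and 12.45 with Slc7a5-sh, and 11.85, 11.85 and 11.91 with C-Myc-sh. C-Myc-sh was lowest without overlap, and in Slc7a5-sh replicate 3 lay within the control's range while the other 2 arrays lay below it. PDIA4 fell by 0.57 on the log2 scale in C-Myc-sh (SE 0.08), to 67.2% of the control, and by 0.37 against Slc7a5-sh (limma, adjusted p = 1.5e-05 and 0.000968). The difference in Slc7a5-sh was -0.20 (SE 0.08, adjusted p = 0.0706). Without Slc7a5-sh replicate 3 it was -0.31 and passed (adjusted p = 0.00265), as it did with the replicate number as a block (0.0439) and with a stricter filter on low signals (0.0483). The second probe set of PDIA4 gave -0.25, -0.32 and -0.07 in the 3 comparisons, and only its fall in C-Myc-sh against the control passed.

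HSPA5, known as BiP or GRP78, is the Hsp70 chaperone of the ER and holds the 3 sensors inactive. Its log2 signal was 13.80, 13.83 and 13.74 in Ctrl-sh, 13.64, 13.56 and 13.85 with Slc7a5-sh, and 13.46, 13.52 and 13.56 with C-Myc-sh. Slc7a5-sh replicate 3 was the highest of the 9 arrays, as its array was the highest of its group for PDIA4 and HSP90B1 and the lowest for MANF. C-Myc-sh lay below Ctrl-sh without overlap, and HSPA5 fell by 0.27 on the log2 scale (SE 0.07), to 82.9% of the control (limma, adjusted p = 0.00296). Under quantile normalization this fall was -0.06 and did not pass (adjusted p = 0.401). In Slc7a5-sh the difference was -0.11 (95% interval -0.25 to 0.04, adjusted p = 0.273), and -0.19 without replicate 3, where it passed (adjusted p = 0.0221). The direct comparison of the knockdowns gave -0.16 (adjusted p = 0.0528). It passed at -0.28 with arrays shifted to one median (adjusted p = 0.0152) and at -0.23 without Slc7a5-sh replicate 2 (0.0122), and turned sign without passing under quantile normalization (0.043) and with both probe sets averaged (0.12). A second, dimmer probe set of HSPA5 was lower by -0.82 in Slc7a5-sh, which passed the test over all probe sets (adjusted p = 0.0296), and by -0.41 in C-Myc-sh, which did not (0.189). The mean of both probe sets fell by 0.46 on the log2 scale in Slc7a5-sh (adjusted p = 0.03).

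HSP90B1, or GRP94, is the Hsp90 chaperone of the ER and folds integrins and Toll-like receptors. Ctrl-sh gave 12.16, 12.04 and 12.08, Slc7a5-sh 12.17, 12.23 and 12.31, and C-Myc-sh 11.84, 12.07 and 11.99. Slc7a5-sh lay just above the control without overlap, while C-Myc-sh overlapped the control and lay below Slc7a5-sh. Neither difference from the control passed, 0.14 in Slc7a5-sh and -0.13 with C-Myc-sh (SE 0.07 each, limma, adjusted p = 0.148 and 0.129). The direct difference of -0.27 did (adjusted p = 0.00415), but was -0.01 with both probe sets averaged (adjusted p = 0.967). With arrays shifted to one median, the difference of C-Myc-sh from the control was -0.26 and passed (adjusted p = 0.0173).

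CRELD2 is an ER protein with disulfide isomerase activity that is induced by ER stress. Its values were 10.61, 10.22 and 10.54 in Ctrl-sh, 10.60, 10.42 and 10.37 with Slc7a5-sh, and 10.59, 10.33 and 10.65 with C-Myc-sh. The 3 groups overlapped. Differences from the control were 0.01 in Slc7a5-sh (95% interval -0.23 to 0.26) and 0.07 with C-Myc-sh (-0.18 to 0.31), and neither passed (limma, adjusted p = 0.95 and 0.646). The arrays therefore do not tell a change of CRELD2 within about these intervals from none.

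**Figure D2:**
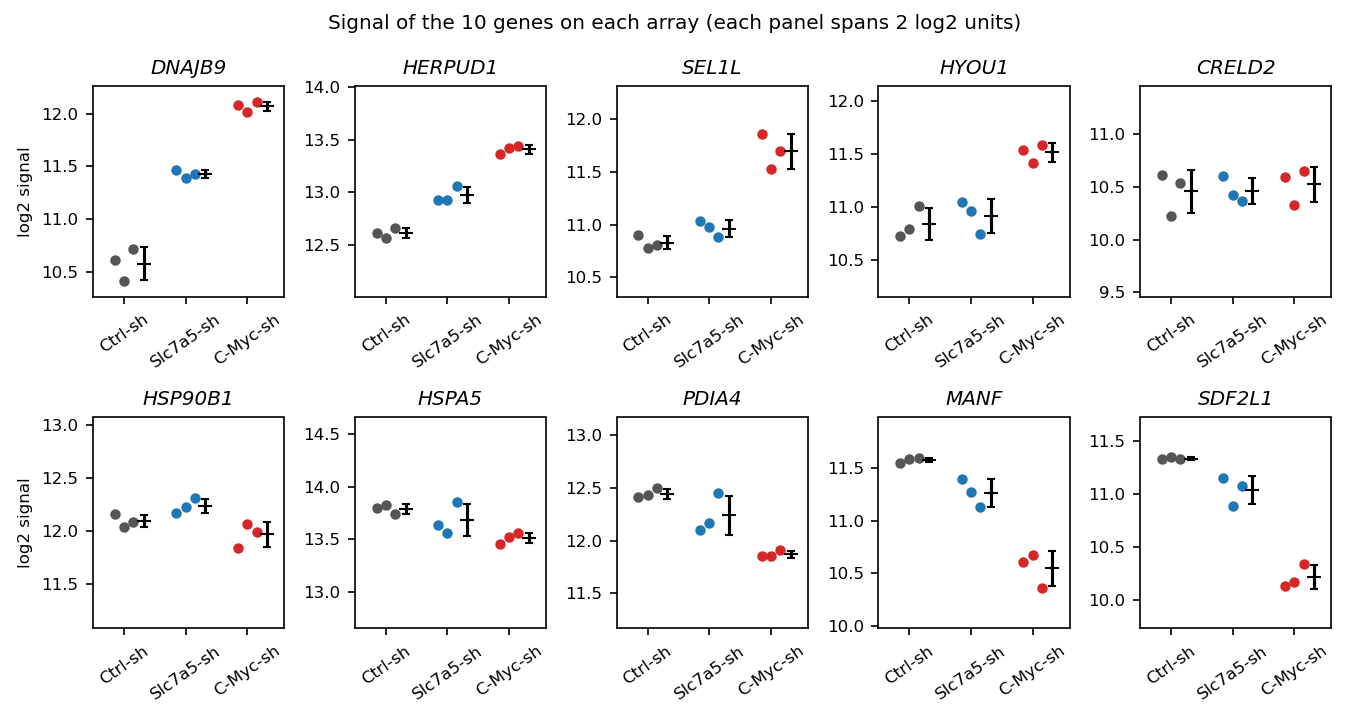
Log2 signal of each of the 10 genes on every array, in panels of the same height of 2 log2 units. Points are arrays, and the bars beside them give the mean and SD of the 3 arrays of a group. DNAJB9 and HERPUD1 step up from Ctrl-sh to Slc7a5-sh to C-Myc-sh, MANF and SDF2L1 step down, and CRELD2 overlaps throughout.

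Counted together for SLC7A5 knockdown, the question was whether the ER stress targets differed where the SLC7A5 signal was 80.0% of the control's. The MYC signal was at 78.7% there, and that of SLC7A5 at 75.4% in C-Myc-sh. Of the 10 genes, 4 were called in Slc7a5-sh against Ctrl-sh, 2 higher and 2 lower, where 25.3% of all tested genes were called (14.3% higher and 11% lower). In 5 of the 10 the arrays of the groups did not overlap, against 39.8% of all tested genes. The median difference over the 10 was 0.04, beside 0.03 over all tested genes. The counts are a description, and these few genes are not set apart from that background by them. The rise of DNAJB9 passed under each of the 19 alternatives tried. That of HERPUD1 passed as well, but leaving out probe sets that can bind related transcripts left only its dim probe set. Averaging probe sets mixed that dim one in (0.79, beside 0.36 as reported). Neither of these settings is used as support for HERPUD1.

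For MYC knockdown, 8 of the 10 were called against Ctrl-sh, 4 in each direction, where 54.9% of all tested genes were called (28.7% higher and 26.2% lower). The arrays did not overlap for 8 of the 10, against 62.2% of all tested genes. The median difference was -0.03, beside 0.04 over all genes. Shifting every array to one median moved all genes by -0.129 in this comparison and took the share of higher calls over all genes from 52.3% to 40.7%, and 4 of the 10 genes were then called higher and 5 lower. Among the 8 genes called in C-Myc-sh, the Slc7a5-sh mean lay between the other groups for 8, beside 68.5% of all genes called in that comparison.

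Set directly against Slc7a5-sh, C-Myc-sh was higher for HYOU1, DNAJB9, HERPUD1 and SEL1L and lower for HSP90B1, PDIA4, SDF2L1 and MANF. These are 8 calls of 10, with a background of 49.5% of tested genes (24.4% higher and 25.1% lower). Arrays did not overlap for 8 of the 10, against 56.5% of all genes. With arrays shifted to one median, which moved all genes by -0.116, the share of higher calls over all genes was 36.8% in place of 49.3%, and the 10 genes gave 4 higher and 5 lower calls. Both knockdowns share the same control arrays, so only this comparison tests their difference.

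**Figure D3:**
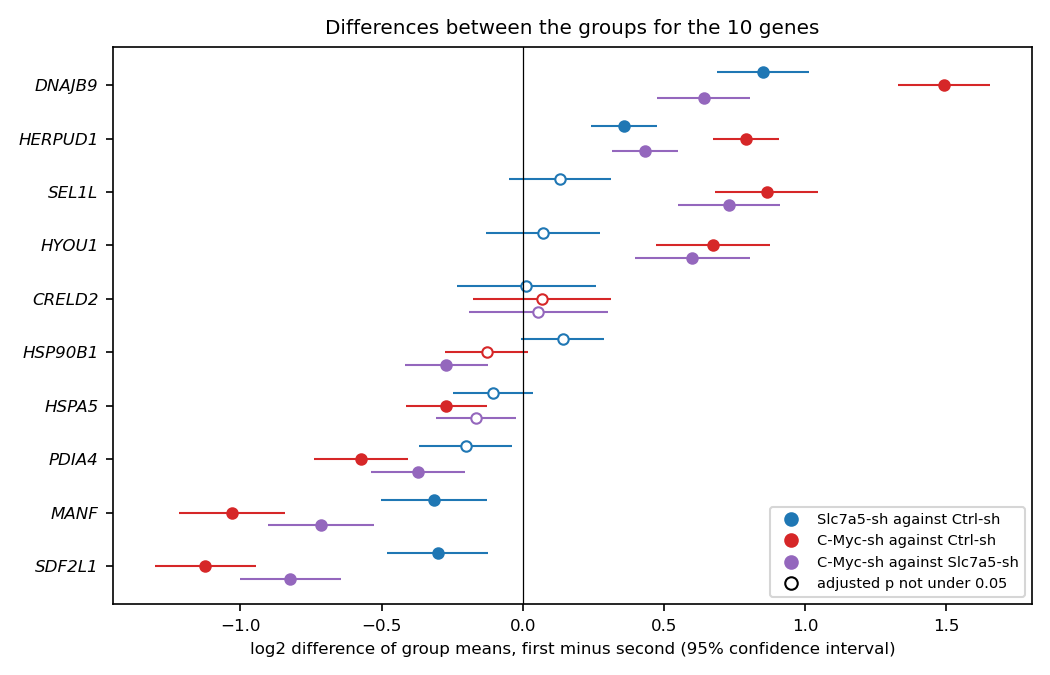
Differences between group means for the 10 genes on the log2 scale, with 95% confidence intervals not adjusted for the number of genes. Filled points passed an adjusted p of 0.05 and open points did not. In C-Myc-sh the genes run from DNAJB9 at 1.49 down to SDF2L1 at -1.12, while CRELD2 stays near 0 in all 3 comparisons.

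The transcripts of the sensors and of the factors they activate were also measured. A 3′ array reads total mRNA, so it shows neither splicing of XBP1 nor cleavage of ATF6 nor phosphorylation of eIF2α. Of 12 listed genes 11 were tested. In Slc7a5-sh 4 rose and 1 fell, where 25.3% of all tested genes were called. In C-Myc-sh 6 rose and 1 fell, where 54.9% were called. The median differences of the 11 were 0.21 and 0.30. The second was 0.17 with arrays shifted to one median and 0.11 with probe sets averaged. ERN1, the sensor and nuclease IRE1, rose by 0.45 in Slc7a5-sh and 0.53 with C-Myc-sh (limma, adjusted p = 0.00507 and 0.000493). XBP1 rose by 0.38 and 0.30 (adjusted p = 0.00383 and 0.00601). With all probe sets averaged ERN1 was at 0.11 and -0.18 and XBP1 at 0.63 and -0.05, none of which passed, and the XBP1 rise in C-Myc-sh was also lost with arrays shifted to one median (0.17, adjusted p = 0.11).

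ATF6 rose by 0.41 in C-Myc-sh (adjusted p = 0.00104), and its value in Slc7a5-sh was 0.09. ATF6B, its paralogue, rose by 0.52 in C-Myc-sh (adjusted p = 0.00697), a call lost with probe sets averaged (0.37, adjusted p = 0.207), and was at 0.13 in Slc7a5-sh. The protease gene MBTPS1 rose by 0.31 in Slc7a5-sh and 0.68 with C-Myc-sh (adjusted p = 0.0132 and 5.8e-06). Its rise in Slc7a5-sh did not pass without Ctrl-sh replicate 2 (0.28, adjusted p = 0.0514) or with probe sets averaged (0.36, 0.0579). MBTPS2 was at 0.21 and 0.11 without passing, although it passed in Slc7a5-sh without replicate 2 of that group (0.27, adjusted p = 0.0246). Of the related membrane-bound factors, CREB3 rose in C-Myc-sh by 0.39 (adjusted p = 0.00773), which shifting arrays to one median ended (0.26, 0.0688). CREB3L2 fell in Slc7a5-sh by 0.36 on the log2 scale (adjusted p = 0.0211), a sign that averaging its probe sets turned (0.08). That call was also lost without Ctrl-sh replicate 2 (-0.32), Ctrl-sh replicate 3 (-0.36), Slc7a5-sh replicate 1 (-0.35) or Slc7a5-sh replicate 2 (-0.28).

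In the PERK branch, EIF2AK3 itself was at -0.10 in Slc7a5-sh and -0.07 with C-Myc-sh and passed in neither. ATF4 rose by 0.43 in Slc7a5-sh (adjusted p = 0.000102). In C-Myc-sh it was at 0.11 without passing (adjusted p = 0.118), and the difference of C-Myc-sh from Slc7a5-sh was -0.32 (adjusted p = 0.00027), which under quantile normalization was -0.12 and did not pass (0.0559). Under that normalization the ATF4 difference of C-Myc-sh from the control was 0.31 and passed (adjusted p = 0.000114), and without C-Myc-sh replicate 1 it passed at 0.15 (0.0367). EIF2S1, which encodes eIF2α, fell by 0.32 on the log2 scale in C-Myc-sh (adjusted p = 0.0103), but rose by 0.60 when probe sets that can bind related transcripts were left out. The fall did not pass without Ctrl-sh replicate 1 (-0.20, adjusted p = 0.0611).

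The targets of ATF4 and of its partner CHOP (gene DDIT3) were set beside the 10 genes. Of 29 listed genes 28 were tested, and in Slc7a5-sh 20 rose and 0 fell, with a median of 0.48. Of all tested genes 14.3% were called higher and 11% lower there. In limma, 0 of the 28 lay below the control even at an unadjusted p under 0.05. In C-Myc-sh 15 rose and 10 fell, with a median of 0.50 that became -0.01 when probe sets were averaged. Of all tested genes 28.7% were called higher and 26.2% lower in that comparison. SLC7A11, the cystine transporter, rose by 1.95 in Slc7a5-sh and 2.22 with C-Myc-sh (limma, adjusted p = 9.2e-08 and 4.2e-10). The glutamine transporter gene SLC38A2 rose by 0.69 and 1.24, and ATF5 by 0.37 and 1.25. PSAT1, an enzyme of serine synthesis, rose by 0.59 in Slc7a5-sh and fell by 0.16 on the log2 scale in C-Myc-sh, where quantile normalization gave 0.02. That fall was lost without C-Myc-sh replicate 2 or Ctrl-sh replicate 1 (-0.13 in both). Most of these genes respond to amino acid shortage as well as to ER stress, and the list was written with results of these arrays known, so its count is no independent evidence.

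Other ER chaperones and foldases, 26 tested of 28, moved in both directions. In Slc7a5-sh 4 rose and 4 fell (median -0.01), where 25.3% of all tested genes were called. In C-Myc-sh 9 rose and 7 fell, where 54.9% were called. The median there was 0.02, or 0.11 under quantile normalization and -0.11 with arrays shifted to one median. It was 0.12 without probe sets that can bind related transcripts. ERO1A, an oxidase that recharges disulfide isomerases, fell in Slc7a5-sh by 0.73 on the log2 scale, and UGGT1, the glycoprotein folding sensor, by 0.45 (limma, adjusted p = 0.000132 and 0.000444), but averaging probe sets ended both calls. MZB1, a cofactor of HSP90B1 in antibody-secreting B cells, fell by 0.40 in Slc7a5-sh and by 2.94 with C-Myc-sh on the log2 scale (adjusted p = 0.00215 and 1.25e-12). FKBP11, a prolyl isomerase of secretory cells, fell by 1.06 in C-Myc-sh (adjusted p = 1.7e-09) and was at -0.01 in Slc7a5-sh. DNAJC10, a disulfide reductase that works with HSPA5, fell by 0.25 and by 0.61, and neither fall passed with probe sets averaged.

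Among 23 tested genes of ER-associated degradation, the pathway of HERPUD1 and SEL1L, 6 rose and 2 fell in Slc7a5-sh (median 0.10). There 25.3% of all tested genes were called. In C-Myc-sh 9 rose and 8 fell, where 54.9% were called. The median there was 0.08, or -0.05 with arrays shifted to one median and 0.14 without probe sets that can bind related transcripts. OS9 and ERLEC1 are lectins that bring misfolded glycoproteins to SEL1L. OS9 rose by 0.51 in Slc7a5-sh and 0.79 with C-Myc-sh (adjusted p = 0.00149 and 5.7e-06). ERLEC1 rose by 0.22 and 0.83 (adjusted p = 0.027 and 8.8e-08), and neither rise passed with probe sets averaged (-0.06 and 0.44). The first was also lost without Ctrl-sh replicate 2 (0.16), Slc7a5-sh replicate 1 (0.21) or Slc7a5-sh replicate 3 (0.21). SELENOS, which links the p97 ATPase to the ER membrane, rose by 0.50 and 0.33 (adjusted p = 5.3e-05 and 0.00033), and AUP1 rose by 0.48 in Slc7a5-sh (adjusted p = 0.000149). The ubiquitin-conjugating enzyme gene UBE2J1 fell by 0.93 on the log2 scale in C-Myc-sh (adjusted p = 6.8e-09), and NGLY1, the cytosolic glycan-removing enzyme, by 0.89 (3.1e-08), which became 0.12 with probe sets that can bind related transcripts left out.

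Of the machinery that brings proteins into and out of the ER, 34 genes of 37 were tested. In Slc7a5-sh 8 rose and 1 fell (median 0.11), where 25.3% of all tested genes were called. In C-Myc-sh 6 rose and 10 fell, where 54.9% were called. The median there was -0.02, or 0.10 under quantile normalization and -0.15 with arrays shifted to one median. Compared directly, C-Myc-sh was higher for 6 and lower for 17 (median -0.14, or -0.0070 under quantile normalization and -0.26 with arrays shifted to one median). Over all tested genes 24.4% were called higher and 25.1% lower in that comparison. SRPRB, a subunit of the receptor that docks ribosomes to the ER, rose by 0.54 in Slc7a5-sh (limma, adjusted p = 4.1e-05) and SEC11A, a signal peptidase subunit, by 0.29 (0.00081). STT3B, a catalytic subunit of oligosaccharyltransferase, fell by 0.33 on the log2 scale (0.000622). In C-Myc-sh the signal peptidase gene SPCS3 fell by 0.96, and the signal recognition particle genes SRP14 and SRP72 fell by 0.68 and 0.64 (adjusted p = 1.2e-09, 8.2e-08 and 1.7e-07).

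Chaperones outside the ER were set beside the 10 genes, since heat shock factor and not the ER sensors is known to drive several of them. Of 13 tested of 17, 6 rose and 2 fell in Slc7a5-sh (median 0.18), where 25.3% of all tested genes were called. In C-Myc-sh 3 rose and 8 fell, where 54.9% were called. The median there was -0.25, or -0.15 under quantile normalization and -0.38 with arrays shifted to one median. It was -0.45 without probe sets that can bind related transcripts. In the direct comparison 0 were higher and 11 lower in C-Myc-sh (limma), beside 24.4% and 25.1% of all tested genes. At an unadjusted p under 0.05 the count of higher genes was also 0. HSPA6, a strictly stress-induced Hsp70, rose by 3.98 in Slc7a5-sh and by 2.27 with C-Myc-sh (adjusted p = 3.95e-08 and 2.1e-07). DNAJB1, an Hsp40 that works with Hsp70, rose by 0.53 and 0.55 (adjusted p = 0.000205 and 2.0e-05). The mitochondrial genes HSPE1 and LONP1 fell by 0.92 and 0.81 on the log2 scale in C-Myc-sh (adjusted p = 5.6e-09 and 3.0e-06).

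Plasma cell and secretory B-cell genes were counted because that programme also draws on XBP1. Of 12 tested of 15, 2 rose and 2 fell in Slc7a5-sh (median 0.02), where 25.3% of all tested genes were called. In C-Myc-sh 4 rose and 7 fell, where 54.9% were called. The median there was -0.23, or -0.36 with arrays shifted to one median and -0.95 with probe sets averaged. IGHM, the immunoglobulin mu heavy chain, rose by 0.35 and 0.90 (limma, adjusted p = 0.000498 and 6.6e-09). Its rise in Slc7a5-sh was 0.05 and did not pass when probe sets that can bind related transcripts were left out. CD38, a surface enzyme of germinal-centre and plasma cells, fell by 0.55 and by 0.23 on the log2 scale (adjusted p = 5.5e-05 and 0.00985), and the second call was lost without Ctrl-sh replicate 3 (-0.18, 0.0571). MZB1, FKBP11 and XBP1, described above, belong to this list as well.

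**Figure D4:**
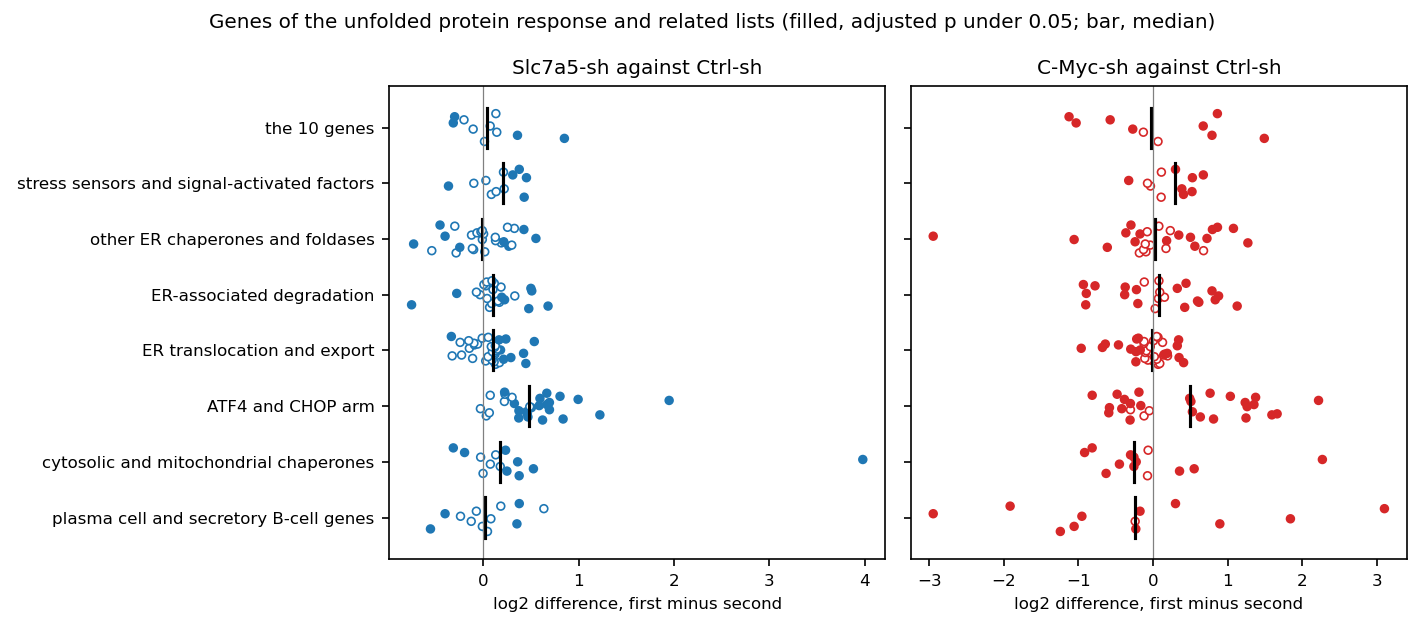
Log2 differences from Ctrl-sh for the tested genes of each list, in Slc7a5-sh on the left and C-Myc-sh on the right. Each point is a gene, filled where the adjusted p was under 0.05, and black bars are medians. In Slc7a5-sh the ATF4 and CHOP arm has its median at 0.48 and the 10 ER stress genes at 0.04.

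By correlation over the 9 arrays, the genes whose pattern was nearest to that of HSPA5 were ATP5MK and POU2AF1 (Pearson r = 0.984 each), GNA13 (0.965), FIS1 (0.963) and CASTOR2 (0.959). ATP5MK is a small subunit of the mitochondrial ATP synthase and POU2AF1 a B-cell coactivator. The 10 ER stress genes were themselves left out of this search and of the next one. Correlations of HSPA5 with the 9 others ran from 0.923 (PDIA4) to -0.867 (HYOU1). Nearest to the mean of the 10 genes, each scaled to mean 0 and SD 1, were MIR1-1HG (r = 0.939), PSMD1 (0.923), NCDN (0.882), SPECC1L (0.874) and NPM2 (0.864). That mean lets the rising and falling members offset each other. It ran from -0.27 to 0.09 in Ctrl-sh, from -0.08 to 0.20 in Slc7a5-sh and from -0.17 to 0.11 in C-Myc-sh. These ranges overlap, so the correlations with that mean do not describe the order of the groups. The 9 arrays form 3 groups and share one scaling, so none of these correlations carries a test.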

How the data were processed

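RNA of 9 samples was turned into biotin-labelled cRNA with a 3′ amplification kit and measured on oligonucleotide arrays, per the labels' protocols. The authors deposited log2 signals, 1 per probe set and array, made with MAS5 per the submitters' processing notes, which give no version. On the linear scale the mean trimmed by 2% was 497 on each array, so signals are relative, and a change in RNA per cell cannot be read from them. No further normalization was applied. Precision is limited by the number of arrays.

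Of 54613 probe sets, 41091 had exactly 1 gene symbol in the platform annotation, 1801 several and 11721 none. For each gene the probe set with the highest mean was kept, and genes were tested where that mean reached the median of all probe sets (5.77, or 54.6 linear). limma 3.58.1 in R 4.3.3 fitted 3 group means over all 9 arrays, followed by eBayes with a variance trend (degrees of freedom 6 residual, 8.21 prior). Tests were two-sided, p-values were adjusted over 11250 genes by Benjamini-Hochberg, and calls were made below an adjusted 0.05. The fit was tested on simulated data. Further probe sets were adjusted over all probe sets with 1 symbol above the filter.

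Replicate numbers did not pair the arrays: deviations of same-numbered arrays from their group means correlated at -0.0235 to 0.0179. The 10 genes and all lists were chosen with earlier results of these data known. Named are the 10 genes, SLC7A5, MYC, every tested sensor gene, the 3 genes with the smallest p of each other list against Ctrl-sh in each knockdown, and the 5 genes nearest in pattern; some are printed. Promoters come from RefSeq tables of GRCh38.p14. Alternatives covered normalization, filter, probe sets, variance model, arrays fitted, a replicate block and leaving out each array.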

Additional observations from a re-analysis of the deposited data

How the results depend on the processing

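Among 558 values of the 10 genes under 19 alternatives, 540 kept their direction and their side of the threshold. A further 9 passed in addition, 9 no longer passed and 0 turned sign with a call on either side. Several alternatives cannot turn a difference, only its adjusted p. These are another filter level, variance model or replicate block, fitting only the arrays compared, and leaving out an array of the group not compared. The 13 sign changes seen were between values that passed in neither. In Slc7a5-sh against Ctrl-sh, 2 of the 10 genes were called without the variance trend, and 1581 genes over the whole table when probe sets were averaged, beside 4 and 2843. Without probe sets that can bind related transcripts, which left 6 of the 10 genes, 5 were called in C-Myc-sh against Ctrl-sh and 3 against Slc7a5-sh. Leaving out 1 array gave 3 to 5, 8 to 8 and 8 to 9 of the 10 genes in the 3 comparisons, and 2246 to 2811, 5695 to 6296 and 5005 to 5524 genes over the table. With the replicate number as a block, which the arrays do not bear out as a pairing, 2775, 6147 and 5526 genes were called, and 5, 8 and 8 of the 10, PDIA4 in Slc7a5-sh being the added one.

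Of 2295 values of the other named genes, 2182 held, 18 passed in addition, 75 no longer passed and 20 turned sign with a call on at least one side. In Slc7a5-sh against Ctrl-sh, averaging probe sets turned CREB3L2 (0.081), UBE2J1 (-0.30) and ERLEC1 (-0.064), and leaving out probe sets that can bind related transcripts turned CREB3L2 (0.22), UBE2J1 (-0.43), NGLY1 (0.0056) and HSPA4 (-0.15). In C-Myc-sh against Ctrl-sh, quantile normalization turned PSAT1 (0.023), averaging turned ERN1 (-0.18), XBP1 (-0.053), EIF2S1 (0.22) and UGGT1 (5.6e-05), and leaving out such probe sets turned EIF2S1 (0.60) and NGLY1 (0.12). In the direct comparison, averaging turned ATF6B (-0.056), CREB3L2 (-0.10) and EIF2S1 (0.19), and leaving out such probe sets turned CREB3L2 (-0.76), EIF2S1 (0.47) and NGLY1 (0.11). Apart from quantile normalization, which turned PSAT1, these settings use other probe sets of the gene. Why probe sets disagree was not tested. Of 399 list medians 67 moved by more than the replicate spread.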

Other observations

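The promoter search also named genes outside the 10. Of 44 genes with an ERSE or ERSE-II match in a window, 6 are among the 10 and 24 others were tested. In Slc7a5-sh, XBP1 rose and CAMTA1 fell, which is 8.33% of the 24 beside 25.3% of all tested genes, and the median difference was -0.09. In C-Myc-sh 5 rose and 7 fell (50%, beside 54.9%), with a median of -0.12. Of the listed ER chaperones and foldases among them, ERO1B rose by 1.27 in C-Myc-sh (limma, adjusted p = 2.7e-06). PDIA6 fell by 0.36 on the log2 scale (adjusted p = 3.3e-05). CALR and CANX, the lectin chaperones, were at -0.18 and -0.09 without passing. These 4 genes were picked for mention after their values were seen.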
